A study of Mus musculus with 8 samples.

Results

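The miR-183 cluster consists of miR-183, miR-96 as well as miR-182, which are cut from hairpins that lie side by side and are transcribed together. Its members were taken by name, as every entry of the count table whose name is miR-182, miR-183 or miR-96 with any arm suffix. This gave 3 of the 387 mature miRNAs listed, mmu-miR-183-5p, mmu-miR-182-5p and mmu-miR-96-5p (the prefix for mouse is left out below), and all 3 passed the filter on low counts, which kept 226 miRNAs. The opposite arms, miR-183-3p, miR-182-3p and miR-96-3p, were not among the entries.

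The cluster is best known from sensory organs. It is strongly expressed in the hair cells of the inner ear, in photoreceptors and in sensory neurons, including those of the nose, and changes in the seed of miR-96 cause progressive hearing loss in mice and in people. A miRNA finds its target messenger RNAs mainly through its seed, bases 2 to 8 counted from the 5′ end, so miRNAs of one transcript can act on overlapping or on different targets according to how alike their seeds are. The primary transcript is shared, but the hairpins are cut, loaded and degraded separately, so mature levels within such a cluster need not be equal.

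The mature sequences are shown because the members differ from one another by few bases in the seed and by how much of the remaining sequence they share. Seeds are in capitals, each sequence runs 5′ to 3′, and all are RefSeq sequences on GRCm38.p6.
miR-183-5p: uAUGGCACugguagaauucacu
miR-182-5p: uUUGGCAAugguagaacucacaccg
miR-96-5p: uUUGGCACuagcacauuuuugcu
Each seed differed from the others. From miR-96-5p to miR-183-5p the seed changes by U2A alone, and from miR-96-5p to miR-182-5p by C8A alone, with positions counted from 1 at the 5′ end. From miR-183-5p to miR-182-5p it changes by A2U and C8A. After the seed, laid base against base from position 9, miR-183-5p and miR-182-5p were identical at 12 of 14 positions (85.7%). There miR-96-5p matched miR-182-5p at 5 of 15 positions (33.3%) and miR-183-5p at 6 of 14 (42.9%). Over their whole length miR-183-5p and miR-182-5p were identical at 18 of 22 positions (81.8%). The 3′ part of miR-96-5p holds a run of 5 U, against a longest run of 2 U in miR-183-5p and 3 U in miR-182-5p. With only 18 of 22 bases shared by the closest pair, the 3 entries are not near-identical copies. A single RefSeq mouse miRNA from elsewhere in the genome, miR-1271-5p (chromosome 13, 54578152 to 54578173, plus strand), has the seed of miR-96-5p, and it was not among the entries either. It is shown for the shared seed.
miR-1271-5p: cUUGGCACcugguaagcacuca

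The hairpins are shown to place each mature strand, which is in capitals, in the precursor that gives rise to it.
Mir183: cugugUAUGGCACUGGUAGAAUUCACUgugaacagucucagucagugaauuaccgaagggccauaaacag
Mir96: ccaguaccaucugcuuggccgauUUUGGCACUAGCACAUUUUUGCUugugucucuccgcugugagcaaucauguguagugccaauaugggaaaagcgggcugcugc
Mir182: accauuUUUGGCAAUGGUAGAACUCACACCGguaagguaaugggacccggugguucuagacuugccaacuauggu
In RefSeq on GRCm38.p6 all 3 hairpins lie on the minus strand of chromosome 6, in the order Mir183 (30169668 to 30169737), Mir96 (30169446 to 30169551) and Mir182 (30165918 to 30165992) along the transcript. Mir183 and Mir96 are 116 bases apart, and Mir96 and Mir182 are 3453 bases apart, within 3820 bases in all. In the GENCODE annotation of GRCm38 no other gene overlaps them, so they are intergenic. The nearest genes on either side are the protein-coding gene Nrf1, 12459 bases away, and the long non-coding RNA gene Rncr4, 3155 bases away, both on the plus strand. The count table names no genome build, so these positions belong to the reference and not to the table.

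Small RNA was sequenced from sperm of C57BL/6 mice described as adults 2 months old, the F0 generation, in 4 Trained and 4 Exposed samples. The labels describe the treatments only as related to smell, and no untreated group was analysed here. They do not state whether each sample is a separate animal, so the p-values speak only of the spread among the samples, part or all of which may be technical.

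The totals were 239664 to 261903 counts in Trained and 193013 to 254944 in Exposed, so 1 count was worth 3.82 to 5.18 CPM (the count per 1000000 counts of its library). All 6 listed markers of male germ cells were present, with a summed level of 211785 to 272074 CPM in Trained and 240366 to 263638 CPM in Exposed. Markers of other cells were present as well, with no listed marker at 0 in every library. The 3 red blood cell markers summed to 238 to 11096 CPM in Trained and 225 to 3974 CPM in Exposed, with the highest sum in Trained 3. The 4 leukocyte markers summed to 1013 to 5139 CPM in Trained and 938 to 1517 CPM in Exposed, again highest in Trained 3. Exposed 2 had the highest sums of the 3 striated muscle markers (554 to 1230 CPM in Trained, 1166 to 2566 CPM in Exposed), the 3 of smooth muscle and stroma (7201 to 8464 CPM in Trained, 7932 to 15309 CPM in Exposed) and the 5 of epithelium (1844 to 2459 CPM in Trained, 1993 to 3509 CPM in Exposed). The sum of smooth muscle and stroma was mostly miR-143-3p (mean 9071 CPM). miR-199a-3p was highest in Trained 3 (126 CPM, against 101 CPM in Exposed 2). In such bulk samples, fewer cells of a type and less RNA per cell cannot be told apart.

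miR-183-5p was the most abundant of the members and ranked 61 of 387 by mean CPM. It stood at 2228, 2609, 2268 and 2324 CPM in Trained 1 to 4, and at 2675, 2073, 2675 and 2269 CPM in Exposed 1 to 4. The Trained values all lay within the range of the Exposed ones, whose libraries fell into a higher pair, 1 and 3, and a lower pair, 2 and 4. Trained averaged 2357 ± 172 CPM and Exposed 2423 ± 302 CPM (SD, n = 4 each). These levels rest on 557 to 680 reads per library in Trained and 433 to 682 in Exposed. The spread was wider than counting gives: chi-square per degree of freedom, which is near 1 where libraries differ by counting error alone, was 3.25 in Trained and 8.33 in Exposed.

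miR-182-5p ranked 108. Its levels were 467, 441, 344 and 480 CPM in Trained 1 to 4, and 455, 493, 400 and 518 CPM in Exposed 1 to 4. The groups overlapped, Trained 3 was the lowest library and Exposed 4 the highest. The mean was 433 ± 61.7 CPM for Trained and 467 ± 51.4 CPM for Exposed (SD, n = 4 each), from 90 to 117 reads per library in Trained and 100 to 110 in Exposed. Chi-square per degree of freedom was 2.26 in Trained and 1.30 in Exposed.

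miR-96-5p, the member whose seed is altered in inherited deafness, was the scarcest and ranked 223. Its raw counts were 12, 16, 17 and 8 reads in Trained 1 to 4, and 12, 7, 8 and 4 reads in Exposed 1 to 4. Scaled to the library totals these were 47.9, 61.4, 64.9 and 33.4 CPM in Trained, and 49.6, 33.5, 31.4 and 20.7 CPM in Exposed. Trained 2 and Trained 3 lay above every Exposed library, while Trained 1 and Trained 4 lay within the Exposed range. The exact Poisson intervals (95%, counting error only) were wide, from 37.8 to 104 CPM in Trained 3, the highest library, and from 5.65 to 53.1 CPM in Exposed 4, the lowest. Trained averaged 51.9 ± 14.4 CPM and Exposed 33.8 ± 11.9 CPM (SD, n = 4 each). Within groups no spread beyond counting was seen, with a chi-square per degree of freedom of 0.979 in Trained and 0.914 in Exposed. Counting alone gives an SD of 27.5% of the mean count in Trained and 35.9% in Exposed. A smaller added spread between libraries would be hard to see.

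**Figure D1:**
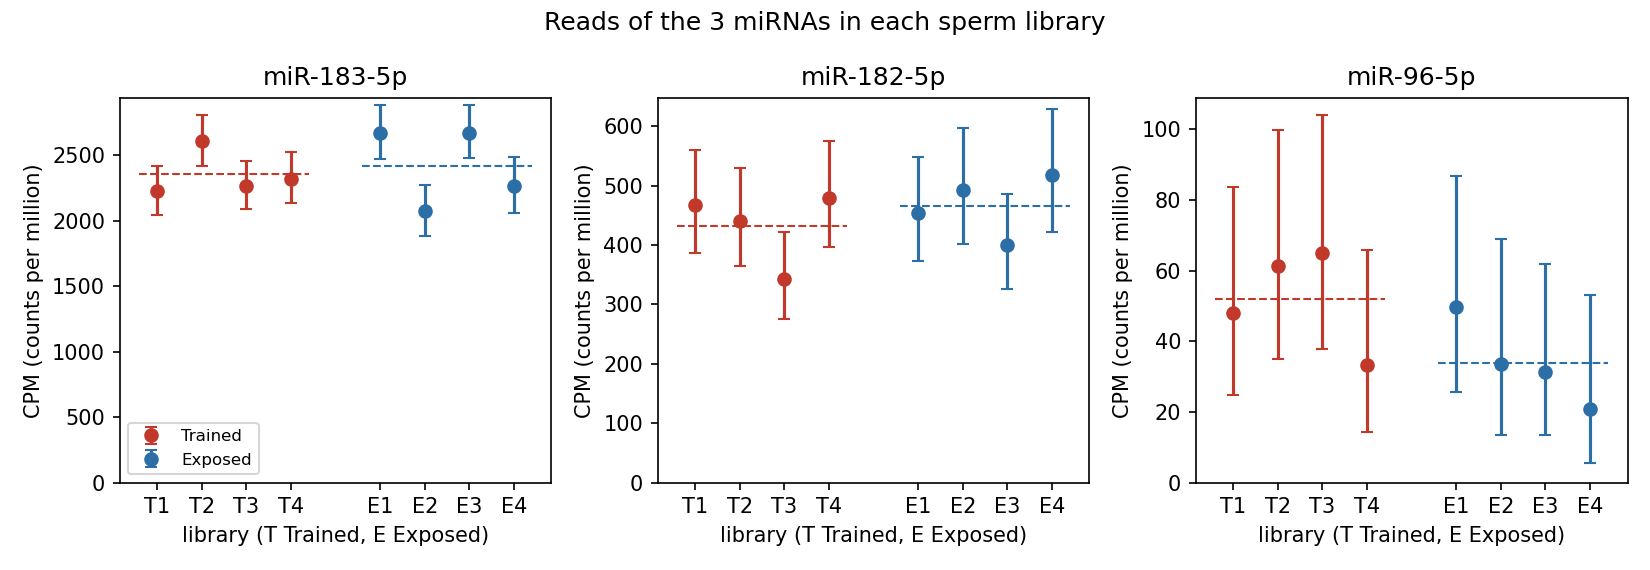
Level of each member in CPM (library total) in the 4 Trained and 4 Exposed libraries; bars are exact 95% Poisson intervals of the count, dashed lines are group means, and each panel has its own axis from 0. miR-96-5p rests on 8 to 17 reads in Trained and 4 to 12 in Exposed, so its bars are wide relative to its level, while those of miR-183-5p are narrow.

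The 3 miRNAs were far from equal in number of reads. Summed over the libraries, miR-183-5p had 2389 reads, miR-182-5p 437 and miR-96-5p 53 in Trained, against 2200, 415 and 31 in Exposed. miR-183-5p made up 82.9% ± 1.64 of the cluster's reads in Trained and 82.7% ± 2.94 in Exposed (SD, n = 4 each). miR-182-5p made up 15.2% ± 2.07 in Trained and 16.2% ± 3.02 in Exposed. The share of miR-96-5p was 1.83% ± 0.519 in Trained and 1.15% ± 0.355 in Exposed. Single libraries ranged from 2.43% in Trained 3 (exact binomial 95% interval 1.42% to 3.85%) to 0.738% in Exposed 4 (0.201% to 1.88%). The order miR-183-5p, miR-182-5p, miR-96-5p held in all 8 libraries. It does not follow the order of the hairpins, since Mir96 lies between the others and next to Mir183. The shares are of sequenced reads and not of molecules, because libraries do not recover every miRNA equally well.

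Taken as ratios within a library, which no scaling between libraries can move, miR-183-5p had 4.77, 5.91, 6.60 and 4.84 reads per read of miR-182-5p in Trained 1 to 4, and 5.88, 4.20, 6.69 and 4.38 in Exposed 1 to 4. The Trained ratios fell inside the Exposed range. For each read of miR-96-5p there were 46.5, 42.5, 34.9 and 69.6 reads of miR-183-5p in Trained, and 53.9, 61.9, 85.2 and 109.5 in Exposed. The 3 lowest of these 8 ratios were Trained 3, Trained 2 and Trained 1, while Trained 4 lay among the Exposed libraries. For each read of miR-96-5p there were 9.75, 7.19, 5.29 and 14.4 reads of miR-182-5p in Trained, and 9.17, 14.7, 12.8 and 25 in Exposed.

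The comparison of Trained with Exposed asks whether the treatments differed in these levels. Across the whole table, 0 of 226 miRNAs (0%) passed a false discovery rate (FDR) of 0.05 in the quasi-likelihood test of edgeR, and none of the 3 members did. At an unadjusted p under 0.05 there were 10 (4.42%), again with no member among them; DESeq2 and limma-voom also gave 0 past the FDR, with 12 and 9 at that unadjusted level. The fitted log2 fold change of miR-183-5p, Trained over Exposed, was -0.07 (SE 0.12, 95% interval -0.34 to 0.19, FDR = 0.998 by edgeR). That of miR-182-5p was -0.14 (SE 0.15, 95% interval -0.47 to 0.19, FDR = 0.998 by edgeR). On a linear scale the intervals run from 0.791 to 1.14 times for miR-183-5p and from 0.724 to 1.14 times for miR-182-5p. A difference as large as these bounds could not be told from none.

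For miR-96-5p the fitted value had the opposite sign and did not pass the test either. Its log2 fold change was 0.56 (SE 0.28, unadjusted p = 0.0773, FDR = 0.998 by edgeR), which is 1.48 times with a 95% interval from 0.949 to 2.31 times. Values above 0 were fitted for 117 of 226 miRNAs (51.8%) and values below 0 for 109 (48.2%), with a median of 0.00 over all tested, so a split of 1 member above 0 and 2 below lies close to that background. A log2 fold change of at least 0.5 in size was found for 18 of 226 (7.96%), miR-96-5p among them. The 60 other tested miRNAs with a mean count within a factor of 2 of its own (10.5 reads) had fold changes from -0.65 to 0.69 and a median SE of 0.26, and 5 of them were at least as far from 0. The CPM values of the groups did not overlap for 5 of 226 miRNAs (2.21%), and overlapped for each of the 3 members. DESeq2 gave miR-96-5p an unadjusted p = 0.218. In the authors' deposited table the log2 fold changes were -0.06 for miR-183-5p, -0.12 for miR-182-5p and 0.54 for miR-96-5p, with an FDR of 1 for each and an unadjusted p of 0.0987 for miR-96-5p.

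**Figure D2:**
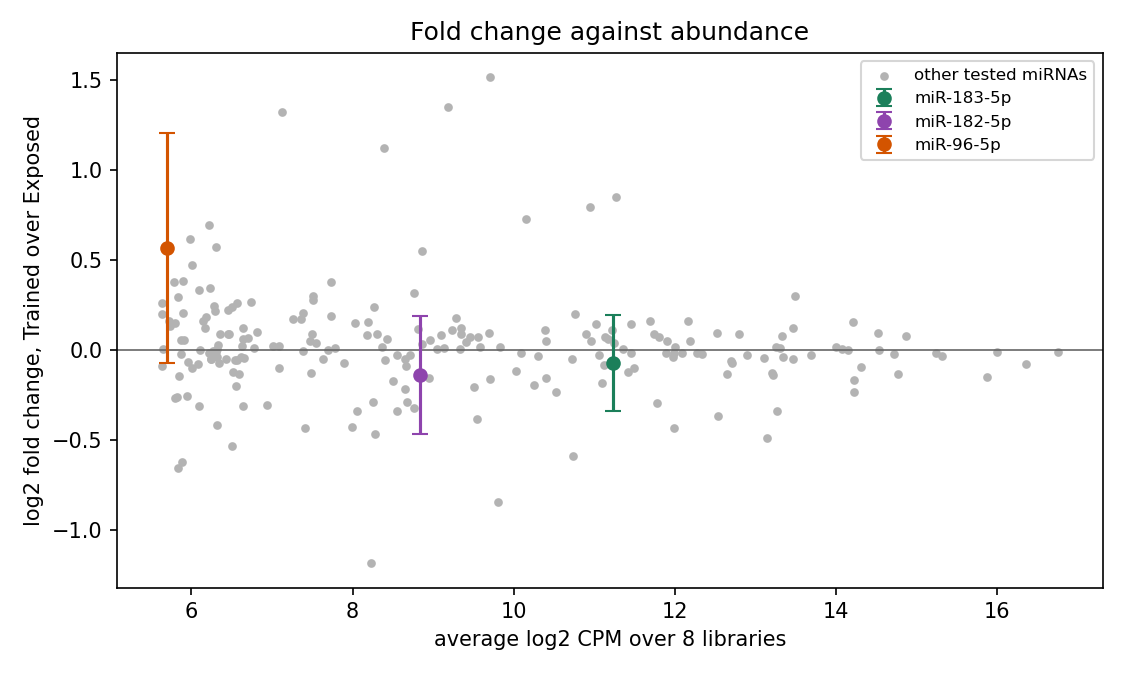
Log2 fold change, Trained over Exposed, against average log2 CPM for the 226 tested miRNAs (grey), with the members in colour and their 95% intervals from edgeR. miR-96-5p, at the low end of abundance where other points also scatter, is at 0.56 with an interval that crosses 0; miR-182-5p and miR-183-5p are at -0.14 and -0.07.

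Whether miR-96-5p moved differently from its neighbours was tested on the ratios, with exact permutation tests over 70 assignments (two-sided, smallest possible p = 0.0286) adjusted over 4 ratios. The log2 ratio of miR-96-5p to miR-183-5p averaged -5.49 ± 0.40 in Trained and -6.12 ± 0.42 in Exposed (SD, n = 4 each), a difference of 0.63 (SE 0.29, exact p = 0.0857, adjusted p = 0.171). Of the 16 pairings of a Trained with an Exposed library, Trained was higher in 14. For miR-96-5p to miR-182-5p the means were -3.04 ± 0.60 in Trained and -3.75 ± 0.56 in Exposed, a difference of 0.71 (SE 0.41, exact p = 0.171, adjusted p = 0.229), and 0.46 without Exposed 4. Against the sum of both neighbours the difference was 0.64 (SE 0.30, exact p = 0.0857, adjusted p = 0.171). The ratio of miR-183-5p to miR-182-5p differed by 0.08 (SE 0.20, exact p = 0.657, adjusted p = 0.657), with a mean of 2.45 ± 0.23 in Trained and 2.37 ± 0.33 in Exposed. Its sign turned without Trained 3 (-0.0099), Exposed 2 (-0.02) or Exposed 4 (-0.0022). None of the 4 ratios passed, and the lowest exact permutation p before adjustment was 0.0857. With a smallest possible p of 0.0286, a ratio that fully separated the groups alone could not pass once adjusted over 4 ratios. The ratios with miR-96-5p could have passed together if each had fully separated the groups, but the groups overlapped in each. No departure of miR-96-5p from its co-transcribed partners was called, and none was excluded. The 4 to 17 reads of miR-96-5p per library limit the ratios as well. The red blood cell and leukocyte sums were highest in Trained 3, the library with the highest share of miR-96-5p. Trained 2 had the next highest share (1.97%), with the red blood cell marker miR-451a at 46.0 CPM, against 3654 CPM in Trained 3. The part of these cells in the ratios was not tested. The difference of miR-96-5p to miR-183-5p was 0.49 without Trained 3 and 0.47 without Exposed 4 (exact p = 0.171 in each).

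**Figure D3:**
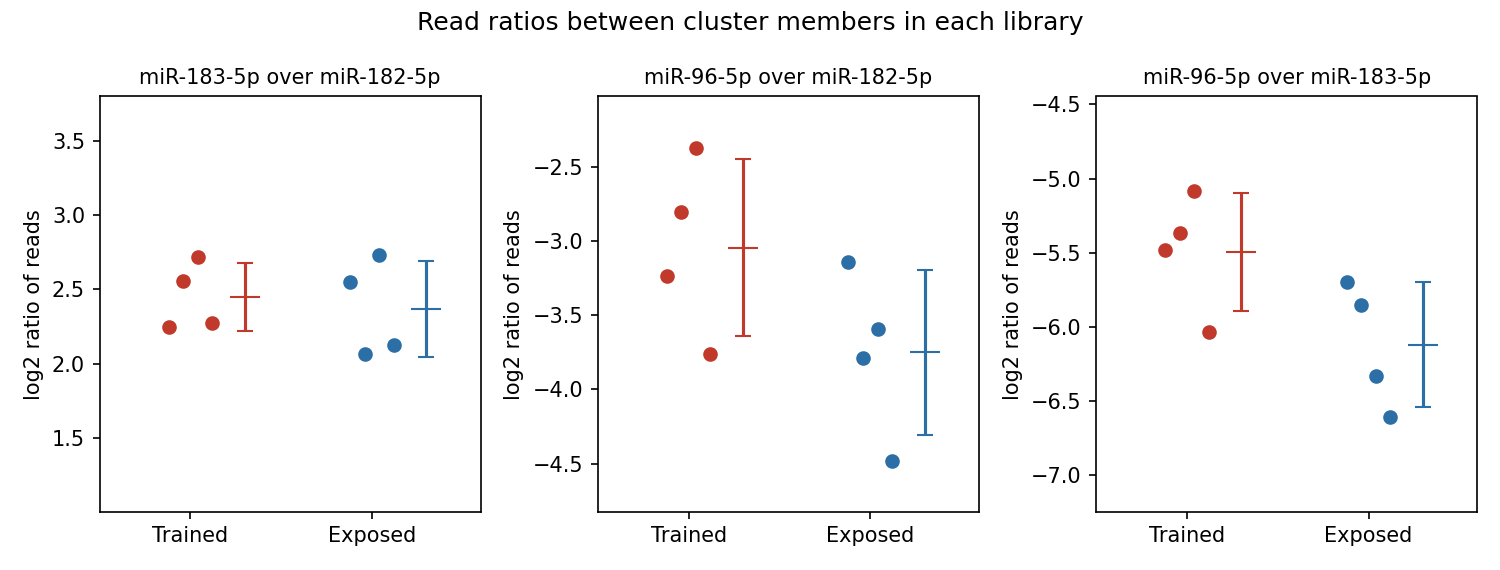
Log2 ratio of reads between pairs of members in each library, Trained left and Exposed right, with the mean and SD of 4 libraries beside the points; all panels span the same range of log2 units. The mean differences, Trained minus Exposed, are 0.63 for miR-96-5p over miR-183-5p, 0.71 over miR-182-5p and 0.08 for miR-183-5p over miR-182-5p; the points overlap in each panel and none of the differences passed its test.

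Single libraries moved each fold change, without turning its sign when 1 was left out. For miR-96-5p the log2 fold change lay between 0.43 without Exposed 4 and 0.81 without Exposed 1. Its unadjusted p was 0.0266 without Exposed 1 (FDR = 0.809, edgeR) and 0.0306 without Trained 4 (log2 fold change 0.72, FDR = 0.996, edgeR), so no call was made in either setting. For miR-182-5p it lay between -0.19 without Exposed 3 and -0.01 without Trained 3, was -0.06 without Exposed 4, and turned to 0.04 without Exposed 2 and Trained 3 together. For miR-183-5p it was -0.0062 without Exposed 3, -0.02 without Exposed 1, -0.03 without Trained 1 or Trained 3, and -0.14 without Exposed 2.

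**Figure D4:**
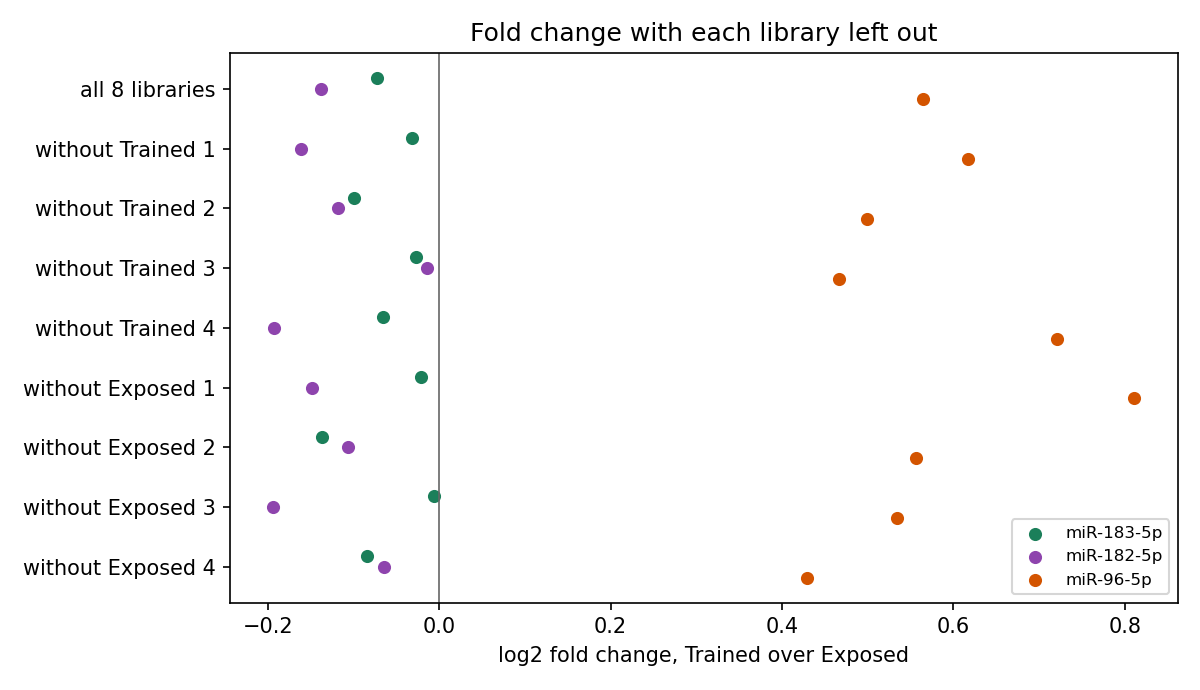
Log2 fold change of each member, Trained over Exposed, with all 8 libraries (top) and with each library left out. miR-96-5p stays between 0.43 and 0.81, and miR-183-5p and miR-182-5p stay between -0.19 and 0 in these settings.

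With levels scaled by library totals, no correlation between members passed a test over the 8 libraries. Over the 8 libraries, log2 CPM of miR-183-5p and miR-182-5p had Pearson r = -0.28 (exact permutation p = 0.513, adjusted p = 0.596 over 3 pairs) and Spearman rho = -0.43 (p = 0.299, adjusted p = 0.449). Without Exposed 1 and Exposed 3, the libraries farthest from the median of miR-183-5p, r was -0.19, and without Trained 3 alone it was -0.77 (exact p = 0.0339). For miR-96-5p and miR-182-5p, r was -0.62 (exact permutation p = 0.0958, adjusted p = 0.287) and rho -0.62 (p = 0.115, adjusted p = 0.345). Without Trained 3 and Exposed 4, the highest and the lowest for miR-96-5p, r was -0.0037; leaving out both ends also narrows the range of miR-96-5p. Leaving out only Trained 3 or only Exposed 4 gave r = -0.42 or r = -0.47. The negative value was larger without Exposed 3 (r = -0.79, exact p = 0.0325) and over all 8 libraries with TMM factors (r = -0.70, exact p = 0.0464), both p unadjusted. For miR-96-5p and miR-183-5p, r was 0.23 (exact permutation p = 0.596, adjusted p = 0.596) and rho -0.12 (p = 0.793, adjusted p = 0.793), and r was 0.32 without the same libraries. All values share the library total as divisor, and those of miR-96-5p carry the counting error of few reads.

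The miRNAs most like each member over the 8 libraries were not its cluster partners. Among 225 other tested miRNAs, those with the highest Pearson r of log2 CPM to miR-183-5p were miR-743b-5p (0.94), miR-192-5p (0.94) and miR-465b-5p (0.92), with miR-96-5p at place 80 and miR-182-5p at place 136. To miR-182-5p they were miR-30e-3p (0.92), miR-375-3p (0.90) and miR-465b-3p (0.90), with miR-183-5p at place 133. To miR-96-5p they were miR-30b-5p (0.91), miR-669p-5p (0.90) and miR-191-5p (0.87), with miR-183-5p at place 96 and miR-182-5p at place 217. These are the extremes of 225 values over 8 libraries and are given as a description. miR-375-3p, known from pancreatic islets and neuroendocrine cells, had 13112 to 21217 CPM in Trained and 17831 to 23605 CPM in Exposed. miR-743b-5p and the miR-465 strands belong to the X-linked cluster of testis miRNAs.

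Other co-transcribed miRNAs give a scale for these ratios. In 17 pairs from 11 other clusters, the scarcer miRNA had under 2% of the reads of its partner in 5 pairs, as miR-96-5p did against miR-183-5p, at 1.83% over all libraries. miR-145a-5p over miR-143-3p, a smooth muscle pair, stood at 0.117%, and miR-106b-5p over miR-25-3p at 0.196%. Each pair took 1 arm per hairpin, and not always the arm with more reads. miR-106b-3p had 248 to 403 reads per library, against 4 to 17 for miR-106b-5p. miR-145a-3p had 9 to 25, against 1 to 4 for miR-145a-5p. The percentages of these pairs thus differ by the arm taken. miR-143-3p had 1515 to 3173 reads per library, so both arms of miR-145a were scarce beside it. The SD of the log2 ratio within groups was 0.28 for miR-183-5p over miR-182-5p, where counting alone gives 0.15, or 1.84 times as much. For miR-96-5p over miR-182-5p it was 0.58 against 0.50 from counting, and for miR-96-5p over miR-183-5p 0.41 against 0.48. In the other 17 pairs it lay between 0.350 and 21.1 times the counting SD, with a median of 0.887. The top value was that of miR-34b-5p over miR-34c-5p. It belongs to 1 arm: miR-34b-5p had 985 to 4100 reads per library, while miR-34b-3p, not among the pairs, had 2032 to 2771. The difference of the log2 ratio between Trained and Exposed was larger in size for miR-96-5p over miR-182-5p (0.71) and over miR-183-5p (0.63) than in any of the other 17 pairs, where it was 0.39 or less with a median of 0.15. That comparison has no test of its own, the ratios of miR-96-5p did not pass theirs, and the pairs differ in depth. Pearson r of log2 CPM in the other pairs ran from -0.47 to 0.99 with a median of 0.53, the highest being miR-144-3p with miR-451a, the red blood cell pair. Groups did not overlap in 0 of the 17 pairs.

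**Figure D5:**
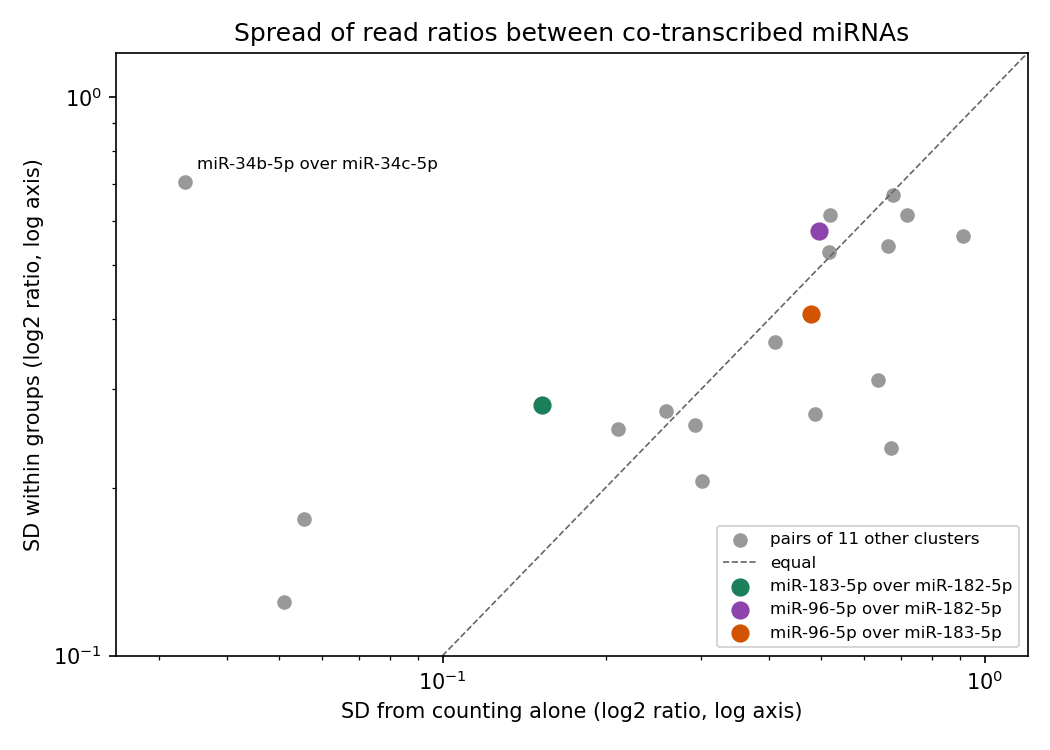
SD of the log2 read ratio within groups against the SD that counting alone gives, both on log axes, for the pairs of the miR-183 cluster (colour) and 17 pairs of 11 other clusters (grey); the dashed line marks equality. The pairs with miR-96-5p lie near the line, and miR-183-5p over miR-182-5p lies above it at 1.84 times.

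For comparison with other miRNAs of sensory tissue, a list was made of 16 known from the retina, inner ear or olfactory epithelium, of which 15 were listed and 12 tested. Of these, 6 had fitted values above 0 in Trained and 6 below, with a median log2 fold change of -0.01, against 0.00 over all 226. None passed the FDR (edgeR), and 0 had an unadjusted p under 0.05. The most abundant was miR-7a-5p at a log2 fold change of 0.02 (SE 0.15), followed by miR-140-3p at -0.02 (SE 0.16), miR-9-5p, a miRNA of neural progenitors and neurons, at 0.00 (SE 0.10), and miR-200c-3p at -0.19 (SE 0.24). The list overlaps the epithelial markers in 5 miRNAs of the miR-200 family. Its summed level was 19740 to 20626 CPM in Trained and 19268 to 20407 CPM in Exposed, ranges that overlapped, while the summed level of the miR-183 cluster was 2677 to 3111 CPM in Trained and 2599 to 3179 CPM in Exposed.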

How the data were processed

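Per the labels' protocols, sperm RNA was extracted with a Qiagen kit and sequenced as single-end reads of 50 nt on a NextSeq500. The authors deposited whole-number read counts per mature miRNA, with group means of those counts (a score without error, not used in tests), log2 fold changes and log2 CPM, and p-values with their FDR, made with edgeR per the submitters' processing notes. The trimming, aligner, miRNA reference and build were not given in the sources used here. A heading of the deposited table calls the Trained group AceTrained.

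CPM values are counts over the library total. Tests used edgeR 4.0.16 in R 4.3.3 (TMM factors, default expression filter, robust quasi-likelihood, two-sided, Benjamini-Hochberg over 226 miRNAs), fitted on the whole table; the filter left out 161 miRNAs with 0.258% of counts. The SE is the size of the fold change over the t quantile of its p. Ratios used log2 with 0.5 added to each count and exact permutation tests. The spread within groups exceeded counting error (3.31 to 61.5 as chi-square per degree of freedom between library pairs). It was widest in the pairs with Trained 3 (50.8 to 61.5). All 8 libraries were kept.

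Replicate numbers come from the titles. Same-numbered deviations correlated at -0.40 for number 1 and 0.53 to 0.69 for the others, and those of different numbers at -0.79 to 0.61. Because of number 1 they were not taken as pairs. Whether the numbers mark a shared batch was not tested. Members, 7 lists, the cluster pairs and the rule for similar patterns (the 3 highest r per member) were chosen with earlier results of these data known, and 4 older names were matched after the table was seen. Low counts limit miR-96-5p most: 3 reads, the limit that a count of 0 allows, equal 11.5 to 15.5 CPM. No molecular identifiers are mentioned for these reads, so intervals cover counting error only. Other settings were DESeq2 1.42.0, limma-voom (limma 3.58.1), other scalings and filters, the replicate block, other added counts and leaving out libraries. The settings without Exposed 2 and Trained 3 together, and with reads summed over a group, were chosen after seeing the data.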

Additional observations from a re-analysis of the deposited data

How the results depend on the processing

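The 11 results were recomputed under 155 alternatives, of which 147 kept the direction and the side of the threshold, 5 turned the sign and 3 took a correlation past an unadjusted p of 0.05. No miRNA passed FDR 0.05 in any setting (edgeR; 18 of all listed miRNAs had an unadjusted p under 0.05 with no filter). Leaving out 1 library at a time gave log2 fold changes from -0.14 to -0.0062 for miR-183-5p, -0.19 to -0.01 for miR-182-5p and 0.43 to 0.81 for miR-96-5p. Under other scalings, filters and tools they ran from -0.11 to -0.04 for miR-183-5p and 0.51 to 0.60 for miR-96-5p. Without Exposed 2 and Trained 3 that of miR-96-5p was 0.48, and that of miR-182-5p turned to 0.039. The log2 ratio difference with 1 library left out was 0.46 to 0.95 for miR-96-5p over miR-182-5p, 0.47 to 0.81 over miR-183-5p and 0.47 to 0.83 over their sum. For miR-183-5p over miR-182-5p it was -0.022 to 0.20, and -0.11 without Exposed 2 and Trained 3. Correlations with 1 library left out ran from -0.77 (exact p = 0.0339) to -0.13 for miR-183-5p with miR-182-5p, from -0.79 (exact p = 0.0325) to -0.42 for miR-96-5p with miR-182-5p, and from 0.07 to 0.43 for miR-96-5p with miR-183-5p. With TMM factors that of miR-96-5p with miR-182-5p was -0.70 (exact p = 0.0464). The cause of these shifts was not tested. With the replicate number as a block, 0 miRNAs passed, the log2 fold changes were -0.07 for miR-183-5p, -0.14 for miR-182-5p and 0.58 for miR-96-5p, and the ratio differences kept their values (0.71, 0.63, 0.08 and 0.64) with exact p of 0.125 or more. For miR-96-5p over miR-183-5p and over the sum, Trained was higher in all 4 same-numbered pairs, and p was 0.125, the smallest that 4 pairs allow. The numbers were not taken as pairs, because the deviations of Trained 1 and Exposed 1 correlated at -0.40. Those of numbers 2, 3 and 4 correlated at 0.69, 0.68 and 0.53, and those of different numbers at -0.79 to 0.61. In 16 sets of 4 values (levels, ratios and summed level per group), 0 extreme values passed Dixon's critical value for 4 samples. At 4 to 17 reads, low counts limit miR-96-5p most.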
